A study of Mus musculus with 9 samples.

Results

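The genes described here encode the proteins of the mitochondrial ribosome. They were taken as the protein-coding genes of the mm10 build whose symbol is Mrpl or Mrps followed by a number and at most 1 letter from a to c. Of 21887 protein-coding genes on chromosomes 1 to 19, X and Y, 78 fitted, 49 named for the large subunit (Mrpl) and 29 for the small subunit (Mrps). Occupancy came from chromatin immunoprecipitation followed by sequencing (ChIP-seq) for the histone deacetylases Hdac1 and Hdac2 in haemogenic endothelium, the endothelium from which early blood cells emerge. It was made in vitro from mouse C57BL/6 embryonic stem (ES) cells of 3 lines, labelled Bry (passage 16 to 19), Hd1_loxlox and Hd2lox (both passage 25 to 30), with no treatment of any line. Each line gave 1 library with an Hdac1 antibody and 1 with an Hdac2 antibody, so n = 3 lines per antibody. Input libraries were not used here. The sources used here do not give the genotypes of the lines, whether each is a single clone, or whether the lines were cultured separately, and passage cannot be told apart from line. Peaks do not measure expression, so the cell type could not be checked by its markers. The 8 genes taken to mark haemogenic endothelium were Cdh5, Kdr, Tek, Pecam1, Kit, Runx1, Gfi1 and Gfi1b. Of these, 6 had an end peak in at least 1 list, against 47.8% of all genes. None had one in either Hd2lox list or for Hdac2 in Hd1_loxlox. The shares of all genes there were 24.3% (Hdac1, Hd2lox), 13.5% (Hdac2, Hd2lox) and 2.71% (Hdac2, Hd1_loxlox). The Wilson upper bound for 0 of 8 genes was 32.4%, above each of these shares. The absences therefore do not set the marker genes apart from all genes. These values do not bear on which cells were present.

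The mitochondrial ribosome translates the few proteins that the mitochondrial genome encodes, all of them parts of the respiratory chain and the ATP synthase. Its RNAs come from mitochondrial DNA, but every one of its proteins is encoded in the nucleus, made in the cytosol and imported. Promoters of this kind of housekeeping gene are usually rich in CpG and active in most cells. Hdac1 and Hdac2 are closely related enzymes that remove acetyl groups from histones as parts of larger complexes, and both are known to sit at active promoters as well as silent ones.

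A gene was called occupied in a list when a peak overlapped the 1000 bp either side of an annotated gene end by 1 bp or more. The 6 lists held between 5161 and 9279 peaks, with no height or read count, so read depth is unknown and absence of a peak is not absence of the protein. The Hd1_loxlox Hdac2 list stood apart, with 594 genes of any kind occupied against 2946 to 7532 in the other 5, and results that rest on it are given with and without it.

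Promoter sequences are shown first for 4 occupied genes, all in the Hdac1 list of Hd2lox, where few of the 78 genes were found. Each is the 300 bases from 250 before to 50 after the annotated start on GRCm38.p6 (RefSeq), 5′ to 3′ on the strand of the gene. Mrps6 is the only one of the 78 genes found in 5 lists, and its promoter lies at chr16:92058086-92058385 on the plus strand. Mrps7 lies at chr11:115603890-115604189 on the plus strand, Mrps24 at chr11:5707652-5707951 on the minus strand and Mrpl40 at chr16:18876588-18876887 on the minus strand. Capitals mark matches on either strand to the letters GGGCGG (an SP/KLF factor site), TGCGCA (the core of an NRF1 site), CCGGAAG (an ETS factor site), CCAAT (an NF-Y site), and to a YY1 site of 10 letters, where overlapping matches are joined.
Mrps6: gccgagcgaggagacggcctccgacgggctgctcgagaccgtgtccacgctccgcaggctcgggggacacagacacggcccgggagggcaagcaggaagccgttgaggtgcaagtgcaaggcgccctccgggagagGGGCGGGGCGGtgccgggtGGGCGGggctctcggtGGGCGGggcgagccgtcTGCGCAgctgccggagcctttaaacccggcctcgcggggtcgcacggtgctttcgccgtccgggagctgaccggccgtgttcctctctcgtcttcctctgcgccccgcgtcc
Mrps7: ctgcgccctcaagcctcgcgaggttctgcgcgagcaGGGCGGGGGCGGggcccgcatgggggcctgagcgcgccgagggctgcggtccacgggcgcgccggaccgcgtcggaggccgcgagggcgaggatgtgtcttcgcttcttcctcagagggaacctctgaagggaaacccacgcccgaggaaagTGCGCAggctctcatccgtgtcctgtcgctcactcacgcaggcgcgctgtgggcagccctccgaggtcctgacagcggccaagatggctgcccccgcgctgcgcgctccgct
Mrps24: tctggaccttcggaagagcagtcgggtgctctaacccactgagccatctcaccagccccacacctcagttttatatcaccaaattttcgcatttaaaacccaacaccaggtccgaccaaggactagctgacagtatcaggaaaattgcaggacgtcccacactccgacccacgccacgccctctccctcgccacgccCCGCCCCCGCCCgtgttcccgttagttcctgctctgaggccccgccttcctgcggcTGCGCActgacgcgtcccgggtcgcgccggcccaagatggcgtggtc
Mrpl40: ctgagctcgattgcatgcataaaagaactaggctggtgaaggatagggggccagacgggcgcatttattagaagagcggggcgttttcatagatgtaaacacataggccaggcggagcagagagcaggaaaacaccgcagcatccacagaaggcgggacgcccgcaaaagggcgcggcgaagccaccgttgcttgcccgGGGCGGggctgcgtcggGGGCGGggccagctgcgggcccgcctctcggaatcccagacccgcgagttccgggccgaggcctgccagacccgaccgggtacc

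For contrast, the next sequences are the first 4 in alphabetical order among the genes that had no end peak in any list and an entry in the promoter table. They are Mrpl11 (chr19:4962056-4962355), Mrpl16 (chr19:11770165-11770464), Mrpl22 (chr11:58171414-58171713) and Mrpl24 (chr3:87919294-87919593), all on the plus strand, with the same letters in capitals.
Mrpl11: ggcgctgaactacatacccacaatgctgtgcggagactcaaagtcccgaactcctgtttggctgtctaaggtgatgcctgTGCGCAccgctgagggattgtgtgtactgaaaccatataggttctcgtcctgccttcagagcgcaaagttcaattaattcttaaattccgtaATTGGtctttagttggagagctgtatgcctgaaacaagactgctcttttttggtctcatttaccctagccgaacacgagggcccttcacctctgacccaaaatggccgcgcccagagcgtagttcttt
Mrpl16: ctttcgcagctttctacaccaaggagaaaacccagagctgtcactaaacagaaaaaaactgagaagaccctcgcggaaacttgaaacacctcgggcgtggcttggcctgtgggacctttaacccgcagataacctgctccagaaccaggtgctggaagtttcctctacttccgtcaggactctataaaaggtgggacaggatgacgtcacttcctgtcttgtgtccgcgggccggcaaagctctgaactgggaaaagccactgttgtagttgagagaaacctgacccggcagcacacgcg
Mrpl22: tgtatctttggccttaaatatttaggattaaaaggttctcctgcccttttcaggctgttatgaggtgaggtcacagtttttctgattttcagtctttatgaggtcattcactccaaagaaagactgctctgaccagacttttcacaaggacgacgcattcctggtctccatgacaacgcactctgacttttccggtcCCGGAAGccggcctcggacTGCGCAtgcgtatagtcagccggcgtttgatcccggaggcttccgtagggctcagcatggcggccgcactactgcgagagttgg
Mrpl24: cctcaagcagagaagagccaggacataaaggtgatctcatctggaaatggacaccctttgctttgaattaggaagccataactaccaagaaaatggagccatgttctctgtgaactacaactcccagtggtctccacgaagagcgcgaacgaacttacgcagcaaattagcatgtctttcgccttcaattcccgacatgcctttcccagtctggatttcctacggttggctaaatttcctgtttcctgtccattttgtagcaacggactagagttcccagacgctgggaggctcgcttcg

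The 4 occupied promoters hold 24 to 39 CpG dinucleotides each and all have GGGCGG, from 2 matches in Mrps7, Mrps24 and Mrpl40 to 4 in Mrps6. The other 4 hold 12 to 16 CpG and none has GGGCGG. The split was less sharp over all listed promoters of these genes, and Mrps7, Mrps24 and Mrpl40 were chosen after their values were seen. GGGCGG was in 15 of 27 promoters of genes in 3 or more lists and in 4 of 19 in no list. Their median CpG counts were 24 and 18. Mrpl22 shows a limit of the rule. Its listed start lies 1621 bp inside the outer end of the gene, beyond the window, and a peak overlapped its listed promoter in the Hdac1 lists of Bry and Hd1_loxlox.

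The first comparison asked how often these genes were occupied in each of the 6 lists. The majority carried Hdac1 in Bry and in Hd1_loxlox and Hdac2 in Bry, above the level of all genes. In both Hd2lox lists they were occupied less often than all genes. Hdac1 was at 41 of 78 genes in Bry (52.6%, Wilson 95% interval 41.6 to 63.3%) against 31.9% of all protein-coding genes. In Hd1_loxlox it was also at 41 genes (52.6%, 41.6 to 63.3%), against 31.7%. In Hd2lox it was at 8 genes (10.3%, 5.29 to 19.0%), against 24.3%.

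Hdac2 was at 42 genes in Bry (53.8%, 42.9 to 64.5%) against 34.4% of all genes. In Hd2lox it was at 1 gene (1.28%, 0.227 to 6.91%), against 13.5%. In Hd1_loxlox it was also at 1 gene (1.28%, 0.227 to 6.91%), against 2.71%. The intervals cover counting error over genes only, and genes that share a peak are not independent. Relative to all genes, the mitochondrial ribosomal protein genes were thus 20.6 and 19.4 percentage points higher in the Hdac1 and Hdac2 lists of Bry, 20.9 points higher in the Hdac1 list of Hd1_loxlox. In Hd2lox the differences were -14.03 points for Hdac1 and -12.2 for Hdac2, and for Hdac2 in Hd1_loxlox -1.43.

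**Figure D1:**
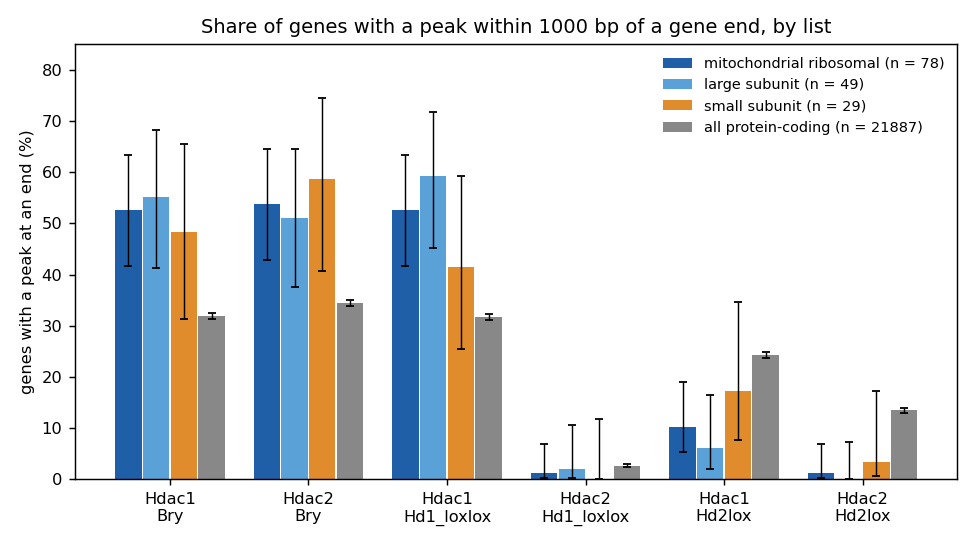
Share of genes with a peak within 1000 bp of a gene end (vertical axis, percent) in each of the 6 lists (horizontal axis), with 95% Wilson intervals as error bars. The bars for the 78 mitochondrial ribosomal protein genes stand above the grey bars for all protein-coding genes in both Bry lists and the Hdac1 list of Hd1_loxlox, and below them in both Hd2lox lists.

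Over the 3 lines Hdac1 occupied a mean of 38.5% ± 24.4 (SD, n = 3) of the 78 genes and Hdac2 18.8% ± 30.3 (SD, n = 3), a difference of 19.7 points. The libraries are paired by line, and the SD of the within-line differences was 27.9 points (n = 3), larger than the difference. The antibodies did not separate the lists: the Bry Hdac2 share was the highest of the 6, and within Bry Hdac1 was 1.28 points below Hdac2. Hdac1 was 51.3 points above Hdac2 in Hd1_loxlox and 8.97 points above it in Hd2lox. Without the Hd1_loxlox Hdac2 list the mean Hdac2 share was 27.6% and the difference of the means was 10.9 points. That difference still counts Hdac1 in Hd1_loxlox. With the line left out for both antibodies it was 3.85 points. No p-value is given for these shares, because the genes were chosen with results of these data known. Even with the pairing ignored, 3 lines against 3 could not give an exact permutation p below 0.1. A test that keeps the 3 pairs has fewer arrangements still.

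The lists that held each occupied gene were then compared. Of the 78 genes, 55 (70.5%) had an end peak in at least 1 list, against 47.8% of all genes, and each of the 55 was in at least 1 of the Hdac1 list of Bry, the Hdac2 list of Bry and the Hdac1 list of Hd1_loxlox. All 3 of these lists held 28 of the genes (35.9%), against 22.1% of all genes, and 21 of the 28 were in no further list. No count over all genes is given beside the 21 or the spread of the 55 over these lists. With another gene end within 1000 bp, the share in all 3 was 23 of 44 (52.3%), against 37.9% of all such genes. Among those with none that near it was 5 of 34 (14.7%), against 16.9%, a small count. In the single lists these 34 genes did lie above all genes of that class. The excess was 7.37 points in Bry Hdac1, 15.9 in Bry Hdac2 and 13.0 in Hd1_loxlox Hdac1. The part of neighbours was not tested. Occupied in 1 list only were 14 of the 78 genes, against 2088 of all 21887. The 14 were 5 in Hdac1 of Bry, 5 in Hdac2 of Bry and 4 in Hdac1 of Hd1_loxlox. The median was 2 lists per gene, against 0 over all genes. In at least 2 Hdac1 lists there were 34 genes (43.6%, against 30.2%) and in at least 2 Hdac2 lists there were 2 genes, Mrps6 and Mrpl14 (2.56%, against 10.6%). For at least 2 Hdac1 lists the share was 56.8% (against 48.0%) with another gene end within 1000 bp and 26.5% (against 24.3%) without. In all 3 Hdac1 lists there were 6 genes (7.69%, against 14.6%), and none was in all 3 Hdac1 lists without Hdac2 (against 0.676%). In 5 or 6 lists there was 1 gene, Mrps6 (1.28%, against 7.15%).

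**Figure D2:**
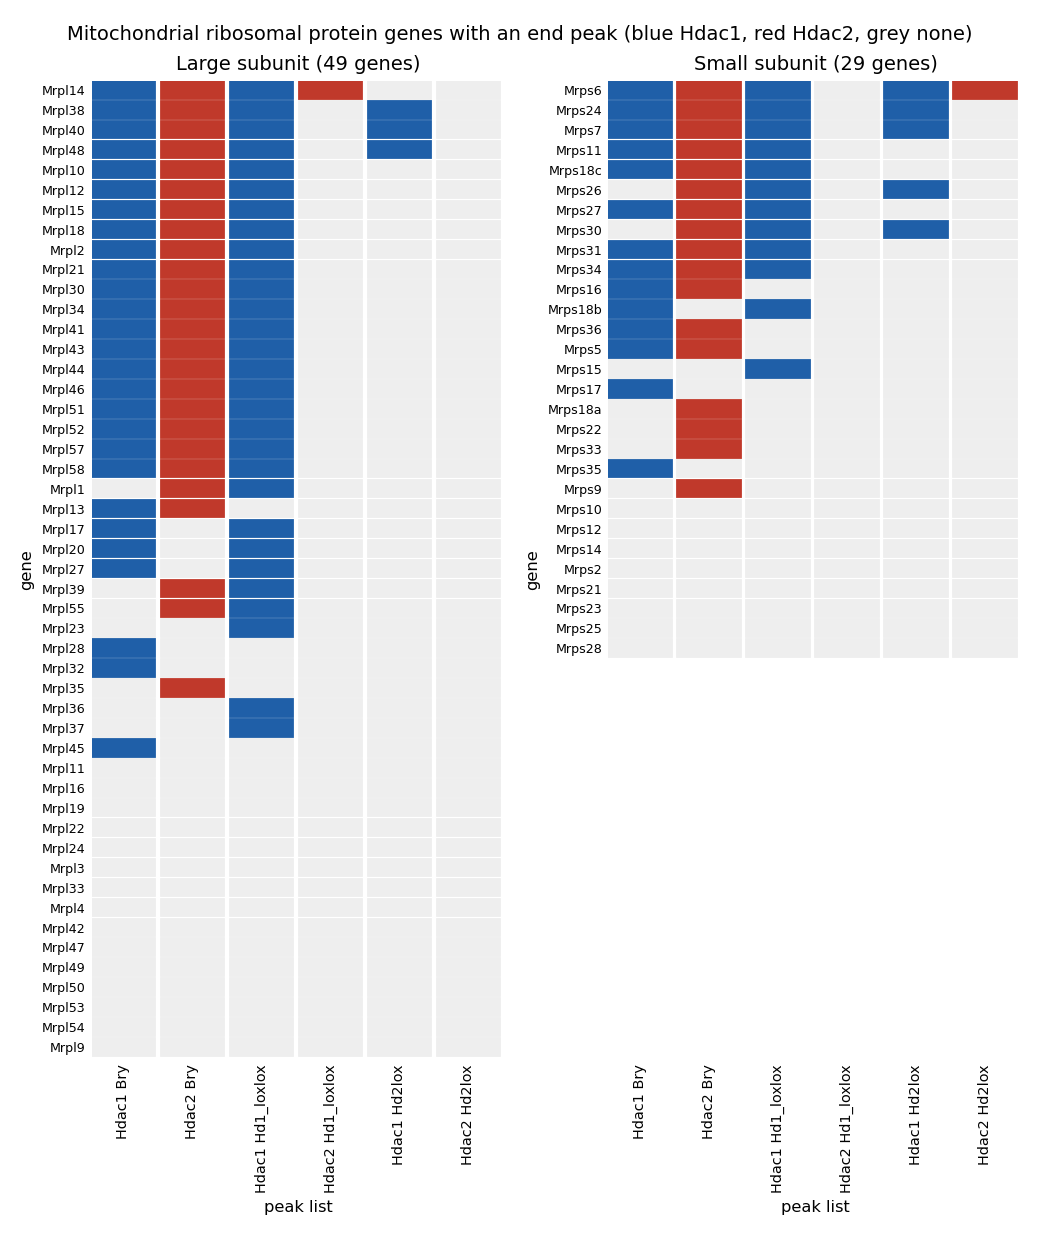
Presence of an end peak for each of the 49 large subunit genes (left) and 29 small subunit genes (right), with genes on the vertical axis ordered by the number of lists and lists on the horizontal axis. Filled cells fall almost wholly in the columns of Bry and of Hd1_loxlox Hdac1, with 8 genes filled for Hdac1 in Hd2lox and 1 for Hdac2 in each of the last 2 Hdac2 lists.

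The pattern in Hd2lox was then set against the other lists gene by gene. Of the 41 genes with Hdac1 in Bry, 6 (14.6%) also had Hdac1 in Hd2lox, whereas 52.1% of the 6989 genes of any kind with Hdac1 in Bry did. From Hd1_loxlox to Hd2lox the shares were 8 of 41 (19.5%) and 54.5% of 6934. Between Bry and Hd1_loxlox the mitochondrial ribosomal protein genes kept Hdac1 about as often as others did, with 32 of 41 (78.05%) against 79.6%. The same was true of the step from Hdac1 to Hdac2 in Bry, with 32 of 41 (78.05%) against 82.4%. All 8 genes with Hdac1 in Hd2lox were in the Hdac1 list of Hd1_loxlox and the Hdac2 list of Bry, and 6 were in the Hdac1 list of Bry. Over the 5315 genes of any kind with Hdac1 in Hd2lox these shares were 71.0%, 75.01% and 68.5%.

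Peaks at these genes were narrower at the median than those at all occupied genes in 3 lists and wider in the other 3, which held 8 genes or fewer. Over all genes, width moved with presence in Hd2lox. The median width of the widest end peak was 1328 bp at the 41 genes in Bry Hdac1 against 1436 bp over all occupied genes, 1361 against 1527.5 bp in Hd1_loxlox Hdac1, and 1154 against 1393 bp in Bry Hdac2. It was 1641.5 against 1475 bp in Hd2lox Hdac1, where 3 of 8 genes lay below the median of all genes. The single peaks in the other lists were 1031 bp in Hd2lox Hdac2 (median of all genes 891 bp) and 1862 bp in Hd1_loxlox Hdac2 (1092 bp). In Bry Hdac1 the widths at the 41 genes ran from 835 to 2532 bp, and 25 of the 41 (61.0%) lay below the median of all genes. All genes in Bry Hdac1 were divided by peak width into 4 classes of nearly equal size. In the narrowest class (779 to 1193 bp) 40.7% also had Hdac1 in Hd2lox, and in the widest (1791 to 6359 bp) 65.5%. For the mitochondrial ribosomal protein genes the counts were 1 of 14, 2 of 11, 1 of 9 and 2 of 7 from the narrowest to the widest class, below the share of all genes in each class. The part of width, or of the lower number of gene-end peaks in Hd2lox, in this result was not tested.

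With peaks below the median width of their list left out, the 78 genes were 5.28 points above all genes in Bry Hdac1, 3.21 in Hd1_loxlox Hdac1 and 3.31 in Bry Hdac2. The differences were then -6.39 points in Hd2lox Hdac1 and -8.51 in Hd2lox Hdac2. The direction was therefore kept in these 5 lists. With all peaks the excess was 20.6 points in Bry Hdac1, 20.9 in Hd1_loxlox Hdac1 and 19.4 in Bry Hdac2, so most of it was lost.

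Large and small subunit genes were compared within each list. Neither subunit was occupied more often in all lists, and for each antibody the sign of the difference varied between lines. Hdac1 was at 27 of 49 large subunit genes (55.1%) and 14 of 29 small subunit genes (48.3%) in Bry. In Hd1_loxlox it was at 29 (59.2%) and 12 (41.4%), the widest gap in favour of the large subunit. The order was the opposite in Hd2lox, with 3 large (6.12%) and 5 small subunit genes (17.2%).

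Hdac2 was at 25 large (51.0%) and 17 small subunit genes (58.6%) in Bry. In Hd1_loxlox Hdac2 was at 1 large subunit gene (2.04%) and no small one (Wilson upper bound 11.7%). In Hd2lox it was at no large subunit gene (upper bound 7.27%) and 1 small one (3.45%). The Wilson intervals of the subunits overlapped in each of the 6 lists. Large minus small gave 6.83, 17.8 and -11.1 points for Hdac1 in Bry, Hd1_loxlox and Hd2lox, with a mean of 4.50, and -7.60, 2.04 and -3.45 points for Hdac2, with a mean of -3.00. Without the Hd1_loxlox Hdac2 list the Hdac2 mean was -5.52 points.

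Symbols do not follow the structure in every case. Mrps30 and Mrps18a, despite their names, encode proteins of the large subunit, and Mrps36 is known as a subunit of the oxoglutarate dehydrogenase complex. With these genes placed by structure and Mrps36 left out, a choice made after the values were seen, the mean differences were 3.97 points for Hdac1 and -0.930 for Hdac2.

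Among small subunit genes, Mrps6, which encodes a protein with a counterpart in the bacterial ribosome, had the most lists. Its Hdac1 peak was 1467 bp wide in Bry (chromosome 16, 92057594-92059060), 1603 bp in Hd1_loxlox (92057674-92059276) and 1687 bp in Hd2lox (92057762-92059448). Hdac2 gave 1377 bp in Bry (92057748-92059124) and 1031 bp in Hd2lox (92058202-92059232), and no end peak in Hd1_loxlox. Every one of the 5 peaks covered the start of Mrps6, and all also lay within 1000 bp of an end of Slc5a3, a myo-inositol transporter gene, so the signal cannot be assigned to Mrps6 alone.

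Mrps7, whose protein binds the ribosomal RNA of the small subunit, had Hdac1 peaks of 2011 bp in Bry, 1990 bp in Hd1_loxlox and 1907 bp in Hd2lox and an Hdac2 peak of 2000 bp in Bry. All 4 peaks also reached Gga3, a clathrin adaptor gene that starts in the opposite direction. Mrps24 had Hdac1 peaks of 985, 1032 and 1848 bp in Bry, Hd1_loxlox and Hd2lox and an Hdac2 peak of 843 bp in Bry. Its peaks reached no other protein-coding gene end, so Mrps24 is a case without a neighbour, and its Hd2lox peak was the widest of its 4. Mrps26 and Mrps30 were each in 3 lists, Hdac2 of Bry and Hdac1 of Hd1_loxlox and Hd2lox, and not in Hdac1 of Bry. Their Hd2lox Hdac1 peaks were 916 and 1164 bp wide, and neither peak reached another gene.

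The Mrps18 paralogs, 3 genes for related proteins at different places in the ribosome, differed in the lists that held them. Mrps18c was in both Bry lists and Hdac1 of Hd1_loxlox, with widths of 1095 bp (Hdac1, Bry), 1330 bp (Hdac1, Hd1_loxlox) and 1089 bp (Hdac2, Bry). Mrps18b was in the Hdac1 lists of Bry and Hd1_loxlox, at 2532 and 1361 bp, and the Bry peak was the widest at any of the 78 genes. Mrps18a was in Hdac2 of Bry only, with a peak of 787 bp. The starts of Mrps18c and Mrps18b lie next to the diverging starts of Helq, a DNA helicase gene, and Ppp1r10, a phosphatase subunit gene, while Mrps18a has no gene end that near.

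Among large subunit genes, Mrpl40, Mrpl48, Mrpl38 and Mrpl14 were in 4 lists each. Mrpl40 had Hdac1 peaks of 2103 bp in Bry, 2492 bp in Hd1_loxlox and 1596 bp in Hd2lox and an Hdac2 peak of 1510 bp in Bry. Each also reached Hira, a histone chaperone gene that starts in the opposite direction. Mrpl48 had 1379, 1479 and 1734 bp for Hdac1 in Bry, Hd1_loxlox and Hd2lox and 1628 bp for Hdac2 in Bry, all shared with the diverging gene Rab6a, a GTPase of the Golgi.

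The peaks counted for Mrpl38 in Bry Hdac1 (chromosome 11, 116129986-116131184) and Hd2lox Hdac1 (116130144-116131286) lay outside the gene (116131817-116138868), towards Trim65, and the other lists of the 4 had a peak there too. A further peak at the opposite end of Mrpl38 was present for Hdac1 in Hd1_loxlox (116138014-116139092) and for Hdac2 in Bry (116138063-116139380). Mrpl14, which encodes a protein at the interface of the subunits, was the only gene of the 78 in the Hd1_loxlox Hdac2 list. That peak (chromosome 17, 45699312-45701173) lay past the stop of the gene, its centre 14520 bp from the outer start. The Hdac1 peaks of Bry and Hd1_loxlox and the Hdac2 peak of Bry covered the start, at 1819, 1991 and 1340 bp. The Hd1_loxlox Hdac2 list therefore held no peak at the outer start of any of the 69 genes for which a strand was known. Start peaks were rare in this list over all genes too. Of 17492 protein-coding genes with a strand, 268 had a peak at the start only and 16 at both ends. The absence is thus not particular to these genes.

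The widest peaks after that of Mrps18b were at Mrpl40 (2492 bp), Mrpl41 (2405 bp), Mrps34 (2377 bp) and Mrpl55 (2189 bp), all in the Hdac1 list of Hd1_loxlox, that of Mrpl55 at its stop. Genes in both Bry lists and Hdac1 of Hd1_loxlox but no other list included Mrpl12 and Mrpl10, whose proteins form the stalk that recruits translation factors. Mrpl58, whose product releases peptides from stalled ribosomes, was in the same lists.

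The 23 genes with no end peak in any list (29.5%, against 52.2% of all genes) were 15 of 49 large subunit genes (30.6%) and 8 of 29 small subunit genes (27.6%). The 15 were Mrpl11, Mrpl16, Mrpl19, Mrpl22, Mrpl24, Mrpl3, Mrpl33, Mrpl4, Mrpl42, Mrpl47, Mrpl49, Mrpl50, Mrpl53, Mrpl54 and Mrpl9, and the other 8 were the small subunit genes Mrps10, Mrps12, Mrps14, Mrps2, Mrps21, Mrps23, Mrps25 and Mrps28. Among the 23 are Mrps12, whose protein sits at the decoding centre, and Mrpl3, whose protein lies near the site of peptide bond formation. For 5 of the 23 (Mrpl22, Mrpl4, Mrps10, Mrps2 and Mrps23) a peak lay within the gene away from its outer ends in at least 1 list. At Mrpl22, Mrps2 and Mrps23 such a peak overlapped the promoter that RefSeq lists, so 3 of the 19 for which a promoter is listed were missed by the rule.

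Position relative to the start of transcription was not used to choose the genes. Where a strand was known, occupancy was mostly at the start, taken here as the outer end of the gene on its 5′ side. In Bry 35 of 36 occupied genes had their Hdac1 peak at the start (97.2%), against 96.0% of all occupied genes. The numbers were 36 of 38 (94.7%, against 96.1%) for Hdac1 in Hd1_loxlox and 38 of 38 (against 96.0%) for Hdac2 in Bry. The median distance from start to peak centre was 120 bp into the gene for Bry Hdac1, 49 bp for Hd1_loxlox Hdac1 and 74 bp for Bry Hdac2, and 32 of 35, 32 of 37 and 35 of 38 peaks covered the start itself. Only peaks that overlapped the 1000 bp either side of the start entered these values, so closeness to it was largely set by the rule. Distances over all genes are not given, so the values describe these peaks only. Genes with a peak near the outer stop and none near the outer start were Mrpl58 for Hdac1 in Bry, Mrpl36 and Mrpl55 for Hdac1 in Hd1_loxlox, and Mrpl14 for Hdac2 in Hd1_loxlox. Of these, the Mrpl36 peak (chromosome 13, 73330497-73331841) overlapped the promoter that RefSeq lists, which lies inside this short gene, so it is a stop peak by the outer ends only. Counted by the listed promoter, a peak overlapped it at 35 of 36 genes for Hdac1 in Bry, 36 of 38 in Hd1_loxlox and 7 of 7 in Hd2lox, and at 37 of 38 for Hdac2 in Bry. By this count Mrpl36 was added and Mrpl20 dropped for Hdac1 in Hd1_loxlox, and Mrpl41 dropped for Hdac2 in Bry. In Hd1_loxlox Mrpl58 had an Hdac1 peak of 1103 bp at its start beside one of 1785 bp at its stop. Mrpl2 had Hdac1 peaks at both ends in Bry, the one at its stop shared with Cul7, a ubiquitin ligase gene.

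**Figure D3:**
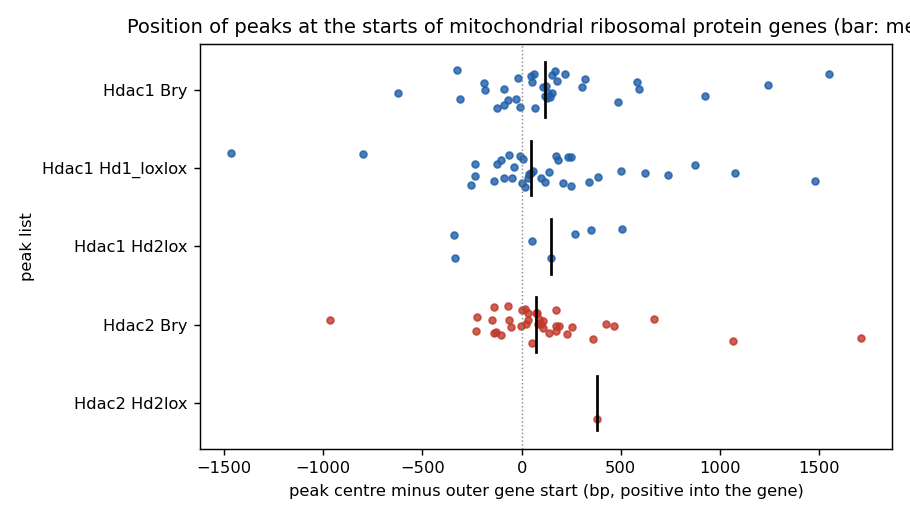
Distance from the outer gene start to the centre of each peak at a start (horizontal axis, bp, positive into the gene) for mitochondrial ribosomal protein genes, by list (vertical axis). Points are peaks, spread vertically for legibility, and bars are medians, which lie 49 to 149 bp into the gene for the 3 Hdac1 lists and at 74 bp for Hdac2 in Bry.

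Many of these genes share their start region with a neighbour. Of the 69 genes with a known strand, 27 (39.1%) had the start of a gene running in the opposite direction within 1000 bp, against 10.2% of 17492 protein-coding genes. Any end of another protein-coding gene lay within 1000 bp of an end of 44 of the 78 (56.4%), against 24.8%. The genes were also short, with a median length of 7690.5 bp against 17169 bp. Several partners also act in mitochondria: Mrpl43 with Twnk, the helicase of mitochondrial DNA, Mrpl36 with Ndufs6 and Mrpl47 with Ndufb5, both subunits of respiratory complex I, Mrps12 with Sars2, a tRNA synthetase, and Mrpl46 with Mrps11. These pairs were not alike in occupancy, since Mrpl43 was in 3 lists, Mrpl36 in 1, and Mrps12 and Mrpl47 in none.

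Mrpl46 and Mrps11 are the one pair of the 78 that share a start region and so counted as occupied through the same peaks. The shared peak was 1328 bp for Hdac1 in Bry (chromosome 7, 78782281-78783608), 1672 bp for Hdac1 in Hd1_loxlox (78782247-78783918) and 1071 bp for Hdac2 in Bry (78782783-78783853). Over the 6 lists, 91 of 139 pairings of a peak with one of the 78 genes (65.5%) had a peak that reached another protein-coding gene as well. In Bry Hdac1 this was 31 of 42 (73.8%), against 35.04% of all pairings of a peak with a gene.

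Occupancy moved with such neighbours, for the 78 genes as for all genes. With a diverging start nearby, Hdac1 was at 20 of 27 of the genes in Bry (74.1%), against 70.3% of all such genes, and without one at 16 of 42 (38.1%), against 28.0%. In Hd1_loxlox the Hdac1 shares were 20 of 27 (74.1%, against 64.3%) and 18 of 42 (42.9%, against 28.2%). For Hdac2 in Bry they were 17 of 27 (63.0%, against 67.1%) and 21 of 42 (50.0%, against 30.9%).

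In Hd2lox the 78 genes were below all genes in both classes. Hdac1 was at 3 of 27 with a diverging start (11.1%, against 31.3%) and at 4 of 42 without (9.52%, against 23.4%). Among the 34 genes with no other gene end within 1000 bp, the excess over all genes of that class was 7.37 points for Bry Hdac1, 13.0 for Hd1_loxlox Hdac1 and 15.9 for Bry Hdac2, and for Hd2lox Hdac1 it was -13.8 points.

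**Figure D4:**
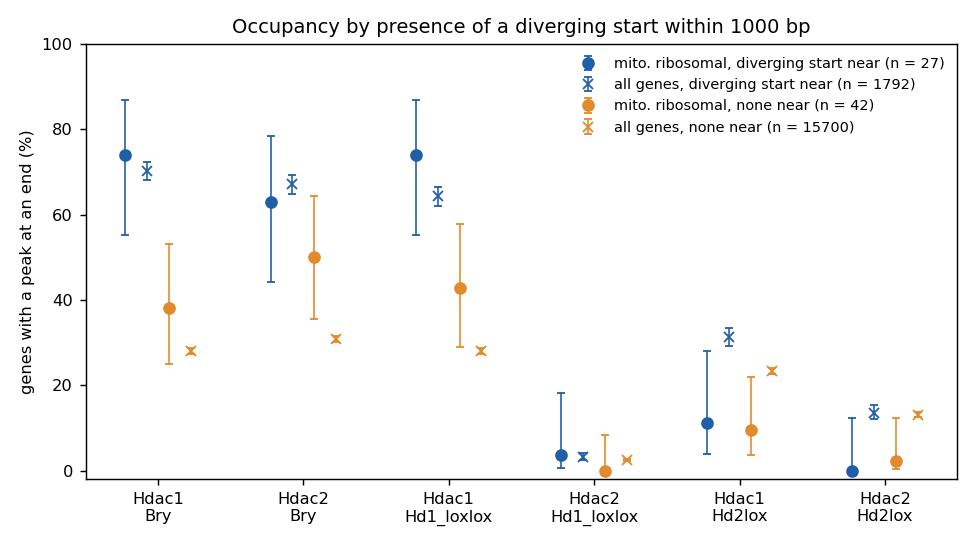
Share of genes with an end peak (vertical axis, percent, with 95% Wilson intervals) in each list, for mitochondrial ribosomal protein genes (circles) and all protein-coding genes (crosses) with a diverging start within 1000 bp (blue) or without one (orange). Blue lies above orange in both Bry lists and the Hdac1 list of Hd1_loxlox, and circles lie below crosses of the same colour in both Hd2lox lists.

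Promoter sequence was described for the 69 of 78 genes in the promoter table, against 17492 promoters of protein-coding genes, each of 300 bases. The promoters were rich in CpG, with a median of 21 CpG dinucleotides (quartiles 16 and 26) against 13 (4 and 24) over all. Genes in 3 or more lists had a median of 24, those in 1 or 2 lists 18 and those in no list 18. Over all genes the medians were 26 in 3 or more lists and 4 in no list, so the unoccupied mitochondrial ribosomal protein genes had far more CpG than unoccupied genes in general.

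Motifs were searched as plain letters on both strands, and a match describes the sequence only. CCGGAAG (ETS) was in 24 of the 69 promoters (34.8%), against 11.9% of all. It was in 11 of 27 promoters of genes in 3 or more lists (40.7%), 6 of 23 in 1 or 2 lists (26.1%) and 7 of 19 in no list (36.8%). Over all genes it was in 18.8% of promoters in 3 or more lists and 6.01% in no list. TGCGCA (NRF1 core) was in 21 (30.4%), against 10.1%, with 7 of 27 (25.9%), 10 of 23 (43.5%) and 4 of 19 (21.1%) in the same classes. Over all genes it was in 14.99% in 3 or more lists and 5.83% in no list. A palindromic NRF1 site of 10 letters, which can overlap TGCGCA, was in 3 (4.35%, against 1.33%). The YY1 site was in 5 (7.25%), against 1.27%.

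GGGCGG (SP/KLF) was in 34 of the 69 (49.3%), against 46.3% of all promoters. It was in 15 of 27 promoters of genes in 3 or more lists (55.6%), 15 of 23 in 1 or 2 lists (65.2%) and 4 of 19 in no list (21.1%). Over all genes the shares were 73.7% in 3 or more lists and 25.2% in no list, so the split by occupancy was general. Of the 7 promoters of genes in the Hd2lox Hdac1 list 6 held it (85.7%), against 74.97% of the promoters of all genes in that list, and 1 of the 7 held CCGGAAG (14.3%, against 13.6%). CCAAT (NF-Y) was in 27 (39.1%, against 39.2%), TATAAA in 4 (5.80%, against 13.3%), CACGTG (E-box) in 5 (7.25%, against 7.91%), TGACGTCA (CRE) in 2 (2.90%, against 2.33%) and the ZNF143 site of 11 letters in none (against 0.440%).

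Other genes of mitochondrial gene expression were set beside the 78, without a test. The ribosomal proteins that carry other names were Dap3 in 5 lists, Gadd45gip1 in 4, Ptcd3 and Aurkaip1 in 2 and Chchd1 in 1, and Hdac1 in Hd2lox was at 2 of the 5, Dap3 and Gadd45gip1. Over all genes Hdac1 was at 31.9%, 31.7% and 24.3% in Bry, Hd1_loxlox and Hd2lox, and Hdac2 at 34.4%, 2.71% and 13.5%. Of 13 mitochondrial translation factor genes (Mtrfr was not matched to the gene table), 7, 6 and 2 had Hdac1 (Bry, Hd1_loxlox, Hd2lox, in this order here and below) and 7, 0 and 1 had Hdac2. Guf1, a translation elongation factor, had the most lists among them, 4. Of 17 mitochondrial tRNA synthetase genes the counts were 9, 9 and 2 for Hdac1 and 9, 1 and 0 for Hdac2, with Ears2 and Yars2 in 4 lists. Of 22 assembly factor genes they were 11, 12 and 3, and 10, 0 and 0, with the RNA helicase gene Dhx30 in 4 lists. Of 12 genes for transcription and upkeep of mitochondrial DNA and RNA they were 8, 8 and 2, and 9, 0 and 2, with Lrpprc, which stabilises mitochondrial mRNAs, and Polg2, the accessory subunit of the DNA polymerase, in 4 lists. Hdac2 in Hd2lox was thus at 2 of these 12 genes (16.7%, Wilson interval 4.70 to 44.8%), against 13.5% of all genes and 1.28% of the 78. The interval includes 13.5% and overlaps that of the 78 (0.227 to 6.91%), so 2 genes do not separate this set from either.

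Larger sets set beside the 78 were the cytosolic ribosomal protein genes and the oxidative phosphorylation genes. Of 83 cytosolic ribosomal protein genes 65.1%, 62.7% and 15.7% had Hdac1 and 47.0%, 1.2% and 7.23% had Hdac2. Rpl14, Rpl7 and Rps19 were in 5 lists. The Bry Hdac2 share was below that of Bry Hdac1 for the cytosolic set, while for the mitochondrial set the shares differed by 1.28 points. Of 82 oxidative phosphorylation genes Hdac1 was at 39.0%, 41.5% and 17.1% and Hdac2 at 39.0%, 2.44% and 2.44%, and Atp5a1 and Atp5d, subunits of the ATP synthase, were in 5 lists. In each of these lists the Hdac1 share in Hd2lox was below those in Bry and Hd1_loxlox. The same order held over all protein-coding genes (31.9%, 31.7% and 24.3%), so it is not particular to these lists. The lists were not tested against each other.

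**Figure D5:**
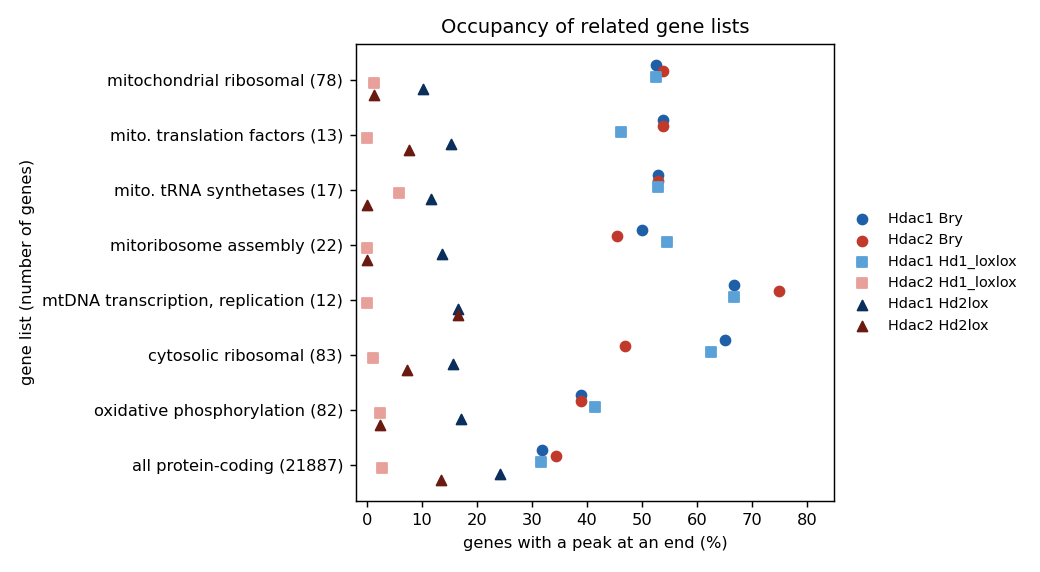
Share of genes with an end peak (horizontal axis, percent) for 8 gene lists (vertical axis, with the number of genes), with colour and shape for antibody and line. In each list the Bry points and the Hdac1 square of Hd1_loxlox lie to the right of the Hd2lox triangles, and for the 78 mitochondrial ribosomal protein genes the 3 right-hand points fall between 52.6% and 53.8%.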

How the data were processed

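The data were 6 lists of ChIP-seq peak positions on mm10, 46202 peaks in all, with 3 columns (chromosome, start, end) and no score. The authors deposited 1 list for each ChIP library, so peaks were called per library. MACS2 2.1.1.20160309, Bowtie2 2.2.9, SAMtools 1.3.1 and bcl2fastq are named in the submitters' processing notes. The sources used here do not give the peak threshold, the mode or how input was used.

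Genes and outer gene ends came from RefSeq (GRCm38.p6, 49943 genes), and strand, starts and sequences from its promoter table, which held 69 of the 78 genes. Presence, widths and shares were computed in Python 3.11.15 with pandas 2.3.3, numpy 2.4.6 and scipy 1.17.1, and the overlap search was tested on simulated peaks. Shares are given with Wilson 95% intervals. Hdac1 and Hdac2 libraries are paired by cell line, from the labels.

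The genes, lists and motifs were chosen with earlier results of these data known. Genes named were those in the most lists, in the Hd1_loxlox Hdac2 list, in no list, with the widest peaks, and the Mrps18 paralogs. Genes in 4 lists, and the sequences of Mrps7, Mrps24 and Mrpl40, were chosen after their values were seen. Alternatives changed the window, overlap, width, gene end, gene set and libraries.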

Additional observations from a re-analysis of the deposited data

Results flagged for a closer look

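In both lists of Bry the 78 mitochondrial ribosomal protein genes were occupied more often than all protein-coding genes, and in both lists of Hd2lox less often. The difference in Bry was 20.6 percentage points for Hdac1 and 19.4 for Hdac2. In Hd2lox it was -14.03 points for Hdac1 and -12.2 for Hdac2. With the wider peaks alone the Bry differences were 5.28 and 3.31 points and the Hd2lox ones -6.39 and -8.51. Among genes with no other gene end near, they were 7.37 and 15.9 points in Bry and -13.8 and -13.02 in Hd2lox. The difference between the lines was not tested, with 1 library per line and antibody. Line, passage and library cannot be told apart.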

How the results depend on the processing

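The spread between lines is as large as most of the values, so a move within it does not show that a value is stable. Windows of 500 or 2000 bp, peak centres, the start only, the further ribosomal proteins and any listed promoter moved each mean share by less than 1.5 times. Under these settings large minus small stayed positive for Hdac1 (0.566 to 6.29 points) and negative for Hdac2 (-8.08 to -3.21). Genes in at least 2 Hdac2 lists numbered 1 rather than 2 with the 500 bp window, peak centres, the start only, any listed promoter or without the Hd1_loxlox Hdac2 list, and 0 without genes near another gene end. Genes in at least 2 Hdac1 lists numbered 34, but 10 with the wider peaks alone and 9 without genes near another gene end, where fewer genes were counted. With the wider peaks, large minus small for Hdac2 turned from -3.00 to 0.798 points, and the 78 genes minus all genes for Hdac2 from 1.94 to -1.75. The latter was 3.63 when only the Hd1_loxlox Hdac2 list was left out. Without genes near another gene end, large minus small for Hdac1 turned from 4.50 to -0.351. With any listed promoter, large minus small for Hdac2 was -8.08. With the wider peaks the mean Hdac1 share went from 38.5 to 16.7%, the Hdac2 share from 18.8 to 8.55%, Hdac1 minus Hdac2 to 8.12, large minus small for Hdac1 to 0.915, and the 78 genes minus all genes for Hdac1 from 9.16 to 0.701. Without genes near another gene end the 78 minus all genes was 2.21 for Hdac1 and 0.120 for Hdac2, and Hdac1 minus Hdac2 was 11.8. The cause was not tested. Without the Hd2lox lists and the Hd1_loxlox Hdac2 list, an alternative chosen after seeing the data like those on promoters, neighbours and structure, the Hdac2 share was 53.8%, 19.4 points above all genes, and Hdac1 minus Hdac2 was -1.28.

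Leaving out each line in turn gave an Hdac1 share of 31.4 to 52.6%, highest without Hd2lox, and an Hdac2 share of 1.28 to 27.6%, lowest without Bry. Hdac1 minus Hdac2 ranged from 3.85 points (without Hd1_loxlox) to 30.1 (without Bry). As a paired (replicate block) value, the median of the within-line differences was 8.97 points against 19.7. Large minus small ranged from -2.15 (without Hd1_loxlox) to 12.3 (without Hd2lox) for Hdac1 and from -5.52 to -0.704 for Hdac2. The 78 genes minus all genes ranged from 3.30 to 20.8 for Hdac1 and from -6.80 (without Bry) to 9.0 for Hdac2. Genes in 2 Hdac1 lists numbered 6 to 32, 32 without Hd2lox, and in 2 Hdac2 lists 0 to 1, since both remaining lists were then required.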

Other observations

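Proteins of the mitochondrial ribosome either have a counterpart in the bacterial ribosome or are found only in mitochondria. Gene numbers were used to separate these classes approximately. Those up to 36 for the large and up to 21 for the small subunit were counted as having a counterpart. This split was made after the values were seen and was not tested. Hdac1 was at 23 of 44 genes with a counterpart in Bry (52.3%), 21 in Hd1_loxlox (47.7%) and 2 in Hd2lox (4.55%). It was at 18 of 34 genes found only in mitochondria in Bry (52.9%), 20 in Hd1_loxlox (58.8%) and 6 in Hd2lox (17.6%). Hdac2 in Bry was at 20 (45.5%) and 22 (64.7%). The split is by symbol, so the 34 keep Mrps36, which was in both Bry lists and is known as a subunit of another complex. Likewise the 44 keep all the Mrps18 paralogs, whose proteins lie at different places in the ribosome, that of Mrps18a in the large subunit. Both of the remaining Hdac2 peaks were at genes with a counterpart, Mrpl14 and Mrps6.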
